A study of Mus musculus with 8 samples.

Results

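The response of CD14-deficient macrophages to 6 h of lipopolysaccharide (LPS, a component of the outer membrane of Gram-negative bacteria) was read from 2 of the 8 arrays of the series. One array held CD14-deficient macrophages after 6 h with LPS and the other held unstimulated CD14-deficient macrophages. A gene was compared where the brighter of these arrays exceeded the median intensity of all values on the 8 arrays, 88.2. This left 6929 of 12394 genes, and the other 5465 were too dim on both arrays. Intensity here is the fluorescence of a probe set, the group of short probes that reads a transcript, after normalization of the 8 arrays to a common distribution. Values under 38.4 were raised to that floor, so a fold against an array at the floor is only a lower limit, written "at least".

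The cells were macrophages grown from bone marrow of mice aged 6 to 8 weeks, cultured for 7 days with fetal bovine serum and the growth factor M-CSF. The CD14-deficient groups came from Cd14-/- C57BL/6 mice and the wild-type groups from C57BL/6 mice. LPS was used at 1 µg/ml for 6 h or 24 h. The wild-type labels call it smooth LPS, and the CD14-deficient labels say LPS. The series also holds wild-type cells unstimulated and with LPS for 6 h and 24 h, wild-type cells with LPS and the calcium chelator EGTA, and CD14-deficient cells with LPS for 24 h. EGTA is given as 2 mM in the label of the 24 h group and without a concentration in that of the 6 h group, and its arrays entered the normalization, the floor, the median of the brightness filter and the choice of probe sets, but no comparison. According to the labels, unstimulated cells were harvested 24 h after plating, whereas the cells with 6 h of LPS received it at plating and were harvested 6 h later. LPS and the time since plating therefore cannot be told apart in any difference given here. The sources used here do not give the number of mice or cultures behind a group. Each group was 1 array, so differences have no replicate check, and neither p-values nor standard deviations can be given. In RNA from whole cultures, fewer cells of a type and less RNA per cell cannot be told apart.

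CD14 is a surface protein without a cytoplasmic part that binds LPS and passes it to MD-2 and the receptor TLR4. TLR4 signals from the cell surface through the adaptor MyD88, which leads to NF-kB and inflammatory cytokines, and from endosomes through the adaptor TRIF, which leads to the factor IRF3, interferon beta and, further on, antiviral genes. CD14 is known to help TLR4 enter endosomes. By the series' design text, CD14-deficient cells served to set effects of calcium flux apart from those of lost TRIF signalling.

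The labels of both arrays were checked against marker genes. Cd14 was at the floor on the unstimulated, 6 h and 24 h CD14-deficient arrays and stood at 3849, 12515 and 8564 on the wild-type arrays at these times. The sources used here do not say whether the deletion covers its probe set. All 10 macrophage markers were compared and none differed 2-fold. The colony-stimulating factor receptor gene Csf1r went from 11601 to 9865, the lysozyme gene Lyz2 from 13826 to 13097 and the lysosomal membrane gene Cd68 from 13413 to 12632. Of 74 marker genes of 10 other cell types on the array, 61 were at the floor on both arrays, among them Elane and Mpo of granulocyte precursors, Cd79a and Pax5 of B cells, Cd3e and Cd3d of T cells, Ncr1 of NK cells, Flt3 and Zbtb46 of dendritic cells, Cpa3 of mast cells, Alas2 of red cell precursors, Col1a1 of stromal cells and Cdh5 of endothelial cells. Summed intensities above the floor went from 457 to 236 for 11 granulocyte genes on the array, where S100a8 rose from 90.6 to 236 and Mmp8 fell from 366 to the floor. The T cell list held 1 gene above the floor, Cd28, which fell from 3071 to 501. Kit of the mast cell list fell from 143 to 66.7, Vwf of the megakaryocyte list fell from 496 to 219 and Kdr of the endothelial list rose from 72.8 to 177. Well above the floor on both arrays, and within 2-fold, were the adaptor gene Blnk of the B cell list, at 4075 and 4296, and the platelet factor gene Pf4 of the megakaryocyte list, at 8297 and 4781. RNA integrity numbers were 9.7 for both samples, the labelled cRNA weighed 71 and 67.2 µg, and actin gave a 3' to 5' signal ratio of 1.15 and 1.12. The 2% trimmed means of the deposited intensities were 497 without and 428 with LPS, in a range of 314 to 527 over the series. The part of these gaps in the results was not tested beyond the alternative scalings given below.

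After 6 h of LPS, 714 of the 6929 genes (10.3%) rose at least 2-fold in CD14-deficient cells and 623 (8.99%) fell at least 2-fold. These shares, and a median log2 difference of -0.13 over all compared genes, are the background for the counts of every gene group below. Increases were larger than decreases. At least 4-fold were 291 increases and 102 decreases, at least 8-fold 141 and 18, at least 16-fold 72 and 3, and at least 32-fold 42 and none. For 105 of the 714 increases the unstimulated array was at the floor, and for 54 of the 623 decreases the 6 h array was, so these sizes are bounds. Most genes changed little, and 62.5% stayed within 1.5-fold. The split between increases and decreases turned on the scaling. With intensities as deposited, 495 genes were higher and 1412 lower, so that 26.0% of the changed genes were higher, against 53.4% after quantile normalization and 64.7% with arrays scaled to the same median, which gave 835 and 455. Over all compared genes the median log2 difference moved to -0.46 as deposited and to 0.08 with equal medians.

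**Figure D1:**
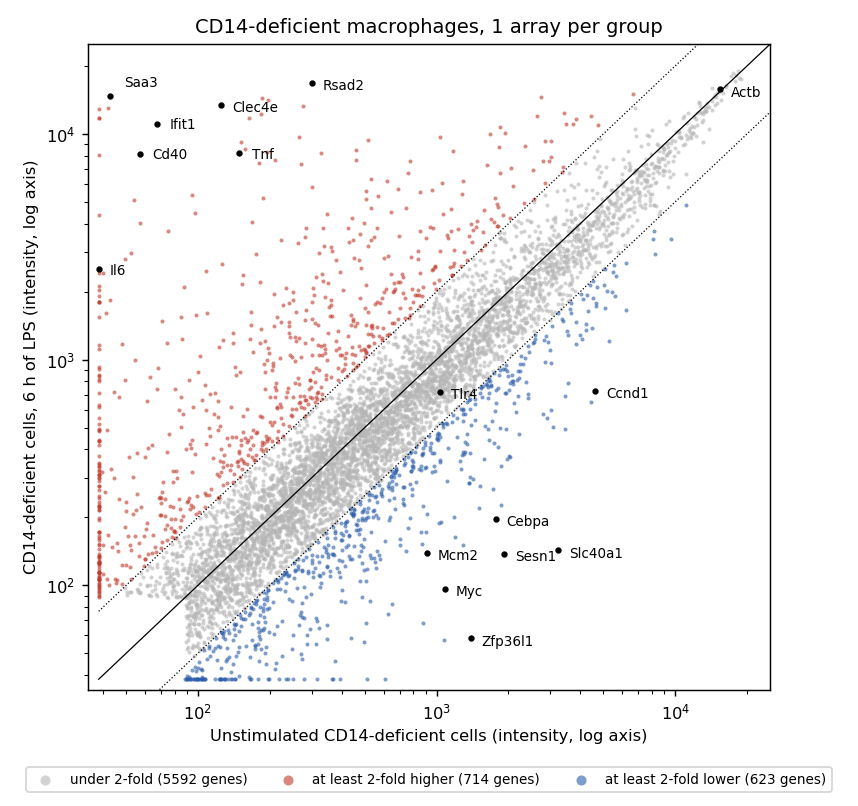
Intensity of each compared gene on the unstimulated CD14-deficient array (x axis) and on the CD14-deficient array with 6 h of LPS (y axis), both on log axes. The solid line marks equality and the dotted lines 2-fold differences. The 714 genes at least 2-fold higher reach far above the upper line and crowd at the floor of 38.4 on the x axis, while the 623 lower genes lie closer to the lower line.

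Genes for sensing LPS itself differed little, apart from other Toll-like receptors. Tlr4 went from 1030 to 720 and Ly96, which encodes MD-2, from 768 to 1064, both under 2-fold. Of 14 receptor and co-receptor genes compared, 5 rose and none fell, and 5 more were not compared, Cd14 among them. Tlr2, the receptor for bacterial lipoproteins, rose from 211 to 7667, a log2 difference of 5.19. Tlr3, an endosomal receptor for double-stranded RNA, rose from 213 to 1540, and Tlr1, Tlr6 and Tlr7 rose by log2 differences of 1.38, 1.32 and 1.16. As deposited, 3 of the 14 were higher and 1 lower. Of 10 adaptor and kinase genes 4 rose and none fell, namely the kinase genes Map3k8 (85.2 to 682), Ikbke (303 to 2074) and Tbk1 (1597 to 3226) and the adaptor gene Myd88 (1229 to 3775). Tbk1, at a log2 difference of 1.01, fell short of 2-fold under another scaling.

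The NF-kB system rose as a group. NF-kB subunits are held in the cytoplasm by inhibitors of the IkB family, whose genes are themselves NF-kB targets. Of 13 genes compared, 11 rose and none fell, with a median log2 difference of 2.65. Nfkbiz, which encodes a nuclear IkB protein, went from 49.4 to 2796, Nfkbie from 84.5 to 1548 and Nfkbia, the gene of IkB alpha, from 3424 to 12333. Among subunits, Nfkb2 rose from 154 to 2360, Relb from 91.4 to 808, Rel from 59.8 to 370 and Rela from 1177 to 3043. The kinase subunit genes Ikbkb and Ikbkg were 0.79 and 0.67 higher in log2 and did not reach 2-fold. The deubiquitinase gene Tnfaip3, a brake on this pathway, rose from 175 to 2942. At 24 h Tnfaip3 stood at 542 and Nfkbiz at 703.

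Inflammatory cytokine genes showed some of the largest increases of the array. All 12 of those compared rose, with a median of 3.61, while 6 others on the array were too dim to compare. The size of this median depends on the floor, since it was 4.39 with the floor at the 20th percentile and 2.19 with it at the 60th, where 11 of 12 rose. Il1b, the gene of interleukin-1 beta, went from 42.1 to 13064 and Il1a from the floor to 4386, at least 114-fold. Tnf, the gene of tumour necrosis factor, rose 55.1-fold from 149 to 8213. Il6 went from the floor to 2510 and Il12b, a subunit of interleukins 12 and 23, from the floor to 627. Il10, an anti-inflammatory cytokine gene, went from 46.9 to 684, and Il15, a growth factor gene for lymphocytes, from 505 to 5168. On the 24 h array Il6 stood at 131, Il10 at 97.1, Tnf at 2360 and Il1b at 8461, each below its 6 h level. Among genes not compared, Il33 went from the floor to 39.7, and Il12a, Il23a, Lif and Csf2 were at the floor on both arrays.

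Chemokine genes were counted by class. Of 3 neutrophil chemoattractant genes compared 2 rose and none fell, and all 4 genes compared in a list of other CXC chemokines rose. The neutrophil chemoattractant genes Cxcl1 and Cxcl2 went from the floor to 2115 and from 157 to 8583, at least 55.1-fold and 54.5-fold. Both were lower on the 24 h array, at 116 and 1641. Ligands of CXCR3, which draw T and NK cells, ranged widely, since Cxcl10 went from the floor to 12922, Cxcl11 from the floor to 843 and Cxcl9 from the floor to 134. Among 10 CC chemokine genes 4 rose and 1 fell. Ccl5 went from the floor to 11790, Ccl22 from the floor to 619, Ccl8 from 68.1 to 920 and Ccl12 from 969 to 2509. The monocyte chemoattractant genes Ccl2 (9296 to 8239) and Ccl7 (5280 to 4458) were already bright and did not differ 2-fold, and Ccl6 fell from 11064 to 4853. With equal medians the CC count was 6 higher and none lower. The atypical chemokine receptor gene Ccrl2 rose from 152 to 9219 and the formyl peptide receptor gene Fpr2 from the floor to 1551, while Cxcr4 fell from 510 to 118.

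Interferon-induced antiviral genes rose, while the transcript of interferon beta was dim at each time. Ifnb1 was at the floor without LPS, at 66.8 at 6 h and at the floor at 24 h, under the level at which genes were compared. Of 29 antiviral effector genes compared, 27 rose and none fell, with a median of 2.93, and with intensities as deposited the median was 2.65. Mx1, a dynamin-like GTPase that blocks viral nucleocapsids, went from the floor to 8079, at least 211-fold. Ifit1, Ifit2 and Ifit3, whose products bind viral RNA, rose from 67.5 to 11088, from 196 to 14058 and from 163 to 11732. Rsad2, the gene of viperin, rose from 301 to 16788. Usp18, which removes the ubiquitin-like protein ISG15, rose from 194 to 8286. The only antiviral genes compared that did not reach 2-fold were Trim25 (1303 to 1974) and Ifi27l2a (5984 to 6612). On the 24 h array Ifit1 stood at 7835 and Mx1 at 4214.

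The large GTPases that attack pathogen vacuoles rose without exception among those compared. All 9 guanylate-binding protein and immunity-related GTPase genes rose, with log2 differences from 3.22 for Gbp7 to 6.57 for Iigp1 and a median of 4.77, the highest among the lists of at least 5 compared genes. Iigp1 went from 53.9 to 5103, Gbp2 from 184 to 12201 and Gbp6 from 52.3 to 2951. The 5 Schlafen genes compared also rose, among them Slfn4 (floor to 801) and Slfn8 (169 to 4082). Of 10 nucleic acid sensor genes 7 rose, including Ifih1 (300 to 5799), which encodes the RNA sensor MDA5, and Zbp1 (109 to 2456), and as deposited 5 were higher and 2 lower.

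Several factors that carry the interferon signal rose as well. Stat2 went from 182 to 2203, Irf9 from 341 to 1066, Irf7, which amplifies interferon genes, from 188 to 5178 and Irf1 from 443 to 4231. Irf3, the factor that TRIF signalling activates without new synthesis, stood at 422 and 417. Irf8, a lineage factor of monocytes, fell from 1951 to 711. Over 7 interferon regulatory factor genes compared, 4 rose and 1 fell, or 3 and 1 as deposited. Of 5 STAT genes compared 3 rose and none fell. The kinase gene Jak2 rose from 263 to 3276 and the receptor gene Ifnar1 from 537 to 1382. In their list of interferon receptor and JAK kinase genes 4 of 8 compared rose and none fell, or 2 and none as deposited.

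**Figure D2:**
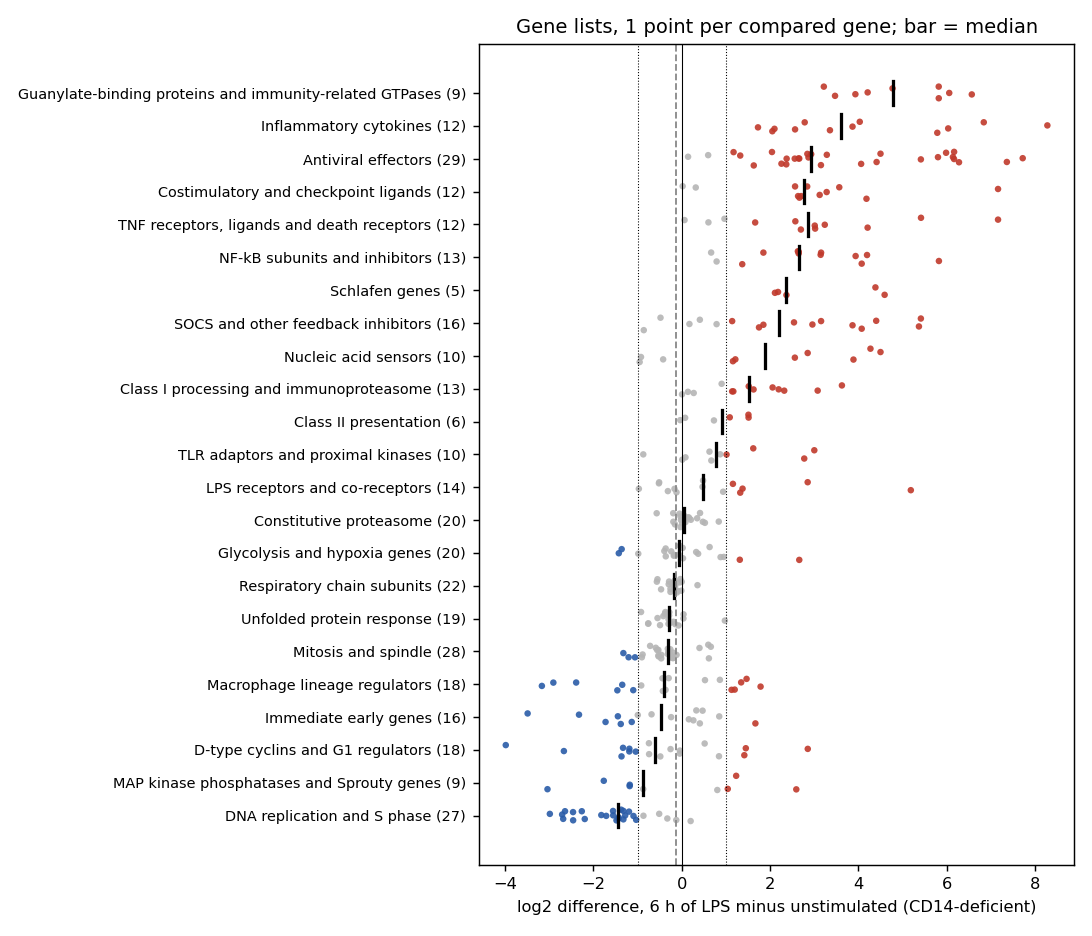
Log2 difference between 6 h of LPS and no stimulus in CD14-deficient cells for genes of 23 lists, 1 point for each compared gene (number in brackets), red for at least 2-fold higher, blue for at least 2-fold lower and grey for less. The black bar is the list's median, the dashed line the median of all compared genes (-0.13) and the dotted lines 2-fold differences. Antiviral, GTPase, cytokine and NF-kB lists lie to the right, DNA replication genes to the left, and respiratory chain, proteasome and unfolded protein response genes within the dotted lines.

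Short sequence motifs in promoters were counted for the same genes. Promoter windows of 300 bases, 250 before to 50 after the annotated start, came from RefSeq (GRCm38.p6) and were matched to 5742 of the 6929 genes. There were 32851 windows for 27025 genes, and a gene was counted where at least 1 of its windows held the motif. Shares are of genes with a window, and genes with several windows had more room for a match. The motifs searched on both strands were the core of the interferon-stimulated response element, TTTCNNTTTC (reverse complement GAAANNGAAA), bound by IRF9-containing complexes and IRFs, the kappa-B motif GGGANNTTCC (GGAANNTCCC) and the STAT motif TTCNNNGAA, its own reverse complement. The interferon element was found in 11.5% of the genes at least 2-fold higher and in 17.9% of those at least 8-fold higher. It stood in 3.16% of those at least 2-fold lower, in 3.42% of those within 2-fold and in 3.99% of all 27025 genes with a window. For kappa-B the shares were 4.41%, 9.43%, 1.58%, 1.57% and 1.63% in the same order, and for the STAT motif 11.5%, 17.0%, 9.68%, 7.62% and 9.55%. The interferon element was in 10 of 18 antiviral effector promoters and in 6 of 7 of the GTPases, and kappa-B in 2 of 3 of the neutrophil chemoattractants. Matches were fewer in other lists with increases. Kappa-B was in 2 of 10 promoters of the NF-kB genes, 2 of 9 of the inflammatory cytokines and none of 6 of the CC chemokines, and the interferon element in 1 of 5 of the Schlafen genes and 1 of 6 of the nucleic acid sensors. A match describes letters in a window and does not show binding. Only the letters given were searched, so variants of a motif, kappa-B among them, were not counted.

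The promoters of the antiviral genes and of the cytokine or CXC chemokine genes with the largest increases among those holding the matching motif are shown to let the spacing be seen. Capitals mark the interferon element in Ifit1 and Ifit3 and the kappa-B motif in Cxcl10 and Il6, and each sequence runs 5′ to 3′ along the strand of the gene. They lie at chr19:34640639-34640938 (plus strand) for Ifit1, chr19:34583279-34583578 (plus) for Ifit3, chr5:92348840-92349139 (minus) for Cxcl10 and chr5:30012864-30013163 (plus) for Il6.
Ifit1: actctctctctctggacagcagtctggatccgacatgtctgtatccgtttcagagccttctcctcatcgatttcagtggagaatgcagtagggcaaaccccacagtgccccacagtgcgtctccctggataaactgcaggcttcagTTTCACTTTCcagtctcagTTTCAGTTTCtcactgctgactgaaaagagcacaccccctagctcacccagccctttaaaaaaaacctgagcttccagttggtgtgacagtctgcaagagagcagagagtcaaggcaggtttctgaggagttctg
Ifit3: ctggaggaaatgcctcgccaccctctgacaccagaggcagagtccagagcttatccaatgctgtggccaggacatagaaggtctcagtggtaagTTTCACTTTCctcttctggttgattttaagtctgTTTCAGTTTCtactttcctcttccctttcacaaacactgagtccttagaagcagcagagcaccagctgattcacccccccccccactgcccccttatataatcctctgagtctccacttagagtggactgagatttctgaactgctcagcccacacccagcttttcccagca
Cxcl10: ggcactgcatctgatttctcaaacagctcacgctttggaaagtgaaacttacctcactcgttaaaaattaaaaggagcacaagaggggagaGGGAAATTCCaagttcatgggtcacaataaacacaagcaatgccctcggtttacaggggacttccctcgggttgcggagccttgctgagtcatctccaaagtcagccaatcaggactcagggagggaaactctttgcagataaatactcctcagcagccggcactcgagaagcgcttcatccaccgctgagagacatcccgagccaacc
Il6: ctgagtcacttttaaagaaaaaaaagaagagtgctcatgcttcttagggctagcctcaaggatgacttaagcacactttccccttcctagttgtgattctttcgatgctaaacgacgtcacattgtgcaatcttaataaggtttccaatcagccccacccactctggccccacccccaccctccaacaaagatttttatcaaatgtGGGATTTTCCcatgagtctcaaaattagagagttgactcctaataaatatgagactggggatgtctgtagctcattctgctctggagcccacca
Ifit1 held the element at -104 and -85 relative to the annotated start and Ifit3 at -156 and -122. The kappa-B motif stood at -159 in Cxcl10 and at -44 in Il6. The Cxcl10 window also held the interferon element, left in lower case, at -213, and none of the 4 windows held a further match of the 3 motifs. Beside these sequences stand the increases given above, from 67.5 to 11088 for Ifit1, from 163 to 11732 for Ifit3, and from the floor to 12922 for Cxcl10 and 2510 for Il6.

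Antigen presentation genes rose in both classes. Class I molecules show peptides cut by the proteasome, and the immunoproteasome replaces its constitutive catalytic subunits. Of 13 class I genes 9 rose and none fell, or 7 as deposited. The peptide transporter genes Tap1 and Tap2 went from 282 to 3481 and from 302 to 1507, the chaperone gene Tapbp from 3002 to 9267 and the immunoproteasome genes Psmb8, Psmb9 and Psmb10 rose by log2 differences of 1.52, 2.19 and 2.06. The heavy chain genes H2-K1 and H2-D1 and B2m were bright on both arrays, with differences of 0.27, 0.14 and 0.01, near the top of the intensity range. None of 20 constitutive proteasome genes differed 2-fold. In class II, 3 of 6 genes rose, namely H2-Ab1 (215 to 613), H2-Eb1 (124 to 355) and Cd74 (508 to 1080), the gene of the invariant chain, and H2-Aa stood at 437 and 725. Cd74 was 0.73 higher as deposited, under 2-fold.

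Genes by which macrophages address lymphocytes rose in most cases. Of 12 costimulatory and checkpoint ligand genes 10 rose, with a median of 2.77. Cd40, the receptor for the T cell ligand CD154, rose 143-fold from 57.1 to 8159. The adhesion molecule gene Icam1 rose from 518 to 9406, Cd274, the gene of PD-L1, from 531 to 6293, and Cd83 from 534 to 3383. Cd86 went from 75.7 to 470, and Cd80 stood at 93.1 and 116, near the level at which genes were compared. Among TNF receptor and death receptor genes 9 of 12 rose, with Traf1, an adaptor of these receptors, from 42.9 to 1831 and Fas from the floor to 709.

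Among secreted defence proteins, 5 of 9 genes compared rose and none fell. Saa3, an acute-phase gene, rose from 42.8 to 14701, 344-fold and the largest increase among genes above the floor on both arrays, and stood at 14199 at 24 h. As its unstimulated value lay near the floor, the fold is imprecise. Lcn2, which binds bacterial siderophores, went from the floor to 1797 and Cfb, a complement factor gene, from the floor to 1119. The complement genes C1qa, C1qb and C1qc stayed within 2-fold. Acod1, whose enzyme makes itaconate, went from the floor to 11699, at least 305-fold, and Nos2, the inducible nitric oxide synthase gene, from the floor to 440. Gch1, needed for the cofactor of that synthase, rose from 688 to 5682, and the arginine transporter gene Slc7a2 from 74.2 to 1184. Ptgs2 and Ptges, enzymes of prostaglandin E2 synthesis, went from the floor to 1907 and from 41.2 to 1607, while Tbxas1, the thromboxane synthase gene, fell from 1449 to 540. Ptgs2 was at 199 at 24 h and Ptges at 1829. Ptgs2, Ptges and Rcan1 (400 to 1043) are also known as targets of NFAT. Of 13 genes of calcineurin, NFAT and its targets 6 rose and 1, Nfatc1, fell (262 to 119), or 5 and 3 as deposited.

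Feedback inhibitors of cytokine and Toll-like receptor signalling rose in most cases. Of 16 compared, 11 rose and none fell, with a median of 2.20. Socs3, which blocks receptors of the IL-6 family, rose from 180 to 7439 and Socs1 went from the floor to 298. Zc3h12a, whose product regnase-1 cuts cytokine transcripts, rose from 70.4 to 1488. Il1rn, the gene of the interleukin-1 receptor antagonist, rose from 1846 to 10748. Socs2 stood at 121 and 66.5 and was not 2-fold lower.

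Several immediate early genes fell, and signalling regulators moved both ways. Of 16 immediate early genes 6 fell and 1, Junb, rose (554 to 1761), and as deposited 8 fell. Myc went from 1082 to 96.5, Egr1 from 3006 to 600, Fos from 4058 to 1229 and Jun from 3820 to 1468. Among 9 MAP kinase phosphatase and Sprouty family genes compared 3 rose and 4 fell, or 2 and 5 as deposited. The ERK phosphatase gene Dusp6 fell from 1858 to 226, Dusp7 from 388 to 114 and Spred2 from 624 to 276, whereas the phosphatase genes Dusp1 and Dusp16 rose from 1739 to 4088 and from 118 to 710. On the 24 h array Fos stood at 2970 and Dusp6 at 1085. Zfp36l1, a factor that speeds decay of AU-rich transcripts, fell 23.8-fold from 1388 to 58.3, the largest decrease among genes above the floor on both arrays, while its relative Zfp36 stood at 2446 and 3515.

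Transcription factors of the macrophage lineage moved both ways. Cebpa, which directs myeloid differentiation, fell 8.97-fold from 1771 to 197, and Cebpb and Cebpd, which are inflammatory relatives, rose from 2049 to 7063 and from 295 to 815. Pparg, a lipid-sensing nuclear receptor gene, fell from 436 to 58.2 and Mef2c from 904 to 173. Spi1, the gene of PU.1, rose from 1898 to 4358. Among 18 genes of this list 5 rose and 6 fell, or 3 and 7 as deposited. Among surface receptor genes, 2 of 7 C-type lectin receptors compared rose and 4 fell, or 1 and 4 of 8 as deposited. Of 6 Fc receptor genes 2 rose and none fell. Of 13 scavenger and phagocytic receptor genes 3 rose and 1 fell, or 3 and 5 of 14 as deposited. Clec4e, the gene of the glycolipid receptor Mincle, rose 107-fold from 125 to 13413, and Fcgr2b, the inhibitory Fc receptor gene, from 1829 to 8779. Clec7a, the gene of the beta-glucan receptor Dectin-1, fell from 5600 to 1913 and Clec4n, that of Dectin-2, from 862 to 172. Marco went from the floor to 298 and stood at 2158 at 24 h.

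Of 13 iron handling genes compared 4 rose and 1 fell, or 4 and 2 as deposited. Slc40a1, the gene of the iron exporter ferroportin, fell 22.6-fold from 3229 to 143. Hamp, the gene of hepcidin, which degrades ferroportin, went from the floor to 250, Cp, a ferroxidase gene, from the floor to 436 and the iron importer gene Slc11a2 from 465 to 1448. Transferrin receptor (Tfrc, 2740 and 2533) and ferritin heavy chain (Fth1, 17146 and 18026) transcripts did not differ 2-fold. Slc7a11, the cystine transporter gene, went from the floor to 417, and Hmox1 stood at 5172 and 4757.

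The DNA replication programme was lower at 6 h, whereas most mitotic genes stayed within 2-fold. Of 27 replication genes compared 22 fell and none rose, with a median of -1.43. The count was 23 as deposited and 19 with equal medians. Genes of the MCM helicase, which opens the DNA ahead of the fork, show the sizes. Mcm2 went from 912 to 140, Mcm3 from 1367 to 285, Mcm4 from 1379 to 301, Mcm5 from 892 to 331 and Mcm7 from 2031 to 369. Uhrf1, which maintains DNA methylation, fell from 653 to 82.5, the ribonucleotide reductase gene Rrm2 from 1716 to 267 and the licensing gene Cdc6 from 239 to the floor. Pcna, the polymerase clamp gene, stood at 13064 and 9177. Of 28 mitotic and spindle genes 3 fell and none rose, with a median of -0.31, and as deposited 6 fell. As deposited the mitotic median was -0.83 and that of the replication genes -1.77. Kif23 fell from 397 to 159, while Mki67 stood at 1089 and 954, Ccnb2 at 696 and 642 and Top2a at 1084 and 752. These were far lower on the 24 h array, at 185, 65.4 and 94.6. The difference between these lists was not tested.

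Among regulators of G1, the phase before DNA synthesis, 3 of 18 genes compared rose and 7 fell, or 4 each with equal medians. Ccnd1, the cyclin D1 gene, fell from 4625 to 728 and Ccne2, a cyclin that starts S phase, from 606 to the floor, at least 15.8-fold. E2f1, whose product drives replication genes, fell from 466 to 186 and Cdk4 from 1174 to 571. Ccnd2 rose from 51.5 to 372 and Cdkn1a, the gene of the cell cycle inhibitor p21, from 2786 to 7614.  Sesn1, a stress-response gene and p53 target, fell from 1915 to 138.

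**Figure D3:**
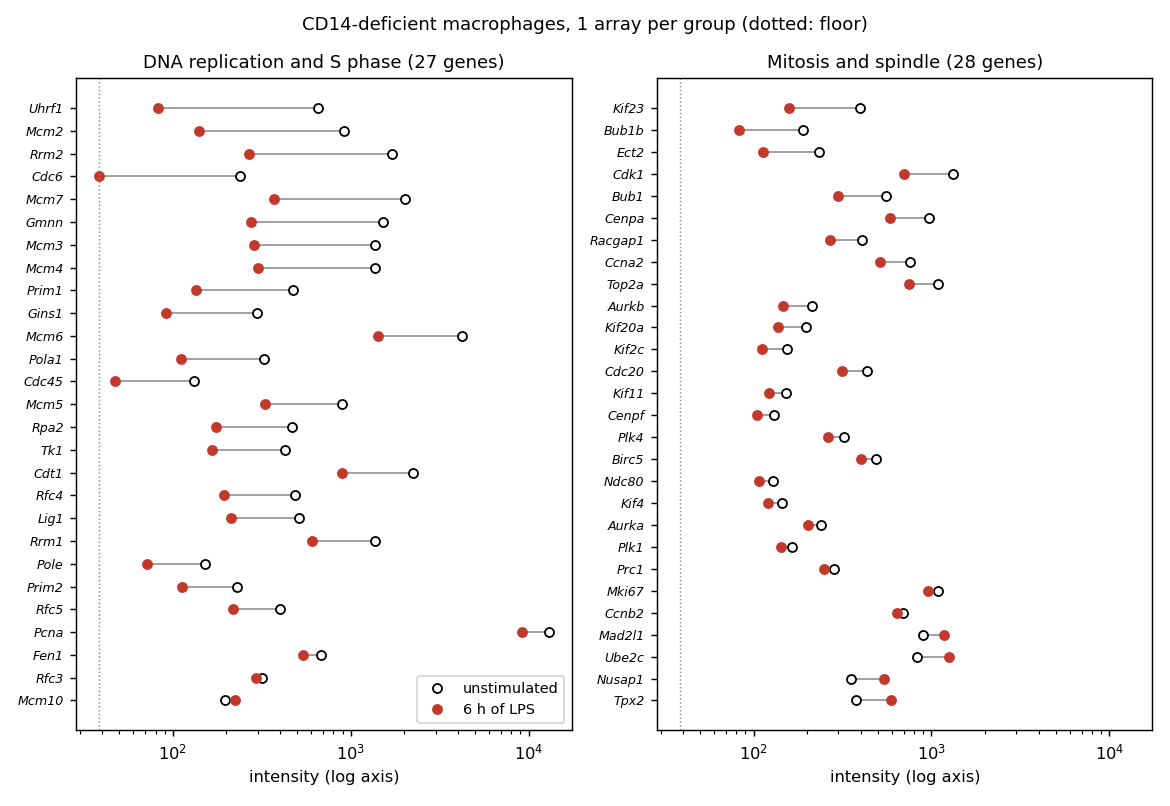
Intensity (log axis) of compared DNA replication genes (left) and mitotic genes (right) on the unstimulated CD14-deficient array (open points) and after 6 h of LPS (red points). The dotted line is the floor of 38.4. Most replication genes lie well to the left after LPS, with a median log2 difference of -1.43, while the mitotic pairs lie close together, with a median of -0.31.

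Several housekeeping and metabolic groups held few or no 2-fold changes. None of 22 respiratory chain genes, 15 ribosomal protein genes, 18 lysosomal genes or 19 unfolded protein response genes differed 2-fold, although as deposited 2 of the last were lower. Gapdh, a common reference gene, stood at 14628 and 14856. Of 14 genes of the tricarboxylic acid cycle 2 fell, Idh1 (3541 to 1283) and Fh1 (1660 to 817), and Fh1 was close to the 2-fold limit. Cholesterol synthesis had 1 lower gene of 15, Dhcr7 (582 to 131). Of 20 glycolysis and hypoxia genes 2 rose, the regulatory enzyme gene Pfkfb3 (192 to 1211) and Hif1a (1683 to 4188), and 2 fell, Pdk1 (2024 to 789) and Vegfa (261 to 97.3). With equal medians this count was 4 higher and 1 lower.

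The response was set beside that of wild-type cells, which shares no array with it. There, 727 of 6936 genes (10.5%) rose at least 2-fold by 6 h and 659 (9.5%) fell. Among 7091 genes that passed the brightness filter in either genotype, 482 were higher in both, which is 67.2% of the 717 higher in CD14-deficient cells and 66.2% of the 728 higher in wild type. Lower in both were 354, or 56.5% of 627 and 52.9% of 669. Of the 717 and 627 genes, 673 and 605 had the same sign in wild type, whether or not they reached 2-fold there. Across the 482 shared increases the median log2 difference was 2.07 in CD14-deficient and 1.89 in wild-type cells, and 279 of them had the larger difference in CD14-deficient cells.

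Antiviral genes had larger differences in CD14-deficient cells beside lower unstimulated levels. All 29 genes compared had the larger log2 difference there, or 27 as deposited and 28 with equal medians. The medians were 2.93 and 1.29, and 16 of the genes rose in wild type. Ifit1 stood at 67.5 and 11088 in CD14-deficient cells and at 2704 and 12312 in wild type, so that the arrays differed far more before LPS than after it. Ccl5 was at the floor before LPS and at 11790 after it in CD14-deficient cells, and at 7558 and 11601 in wild type. Likewise Ms4a4c stood at 40.2 and 2409, against 4786 and 5070. At 6 h Ifit1 and Ccl5 lay in the upper part of the intensity range in both genotypes. Whether this narrowed their 6 h differences was not tested. The transcript of interferon beta itself was lower in CD14-deficient cells after LPS, where Ifnb1 was at the floor, 66.8 and the floor at 0, 6 and 24 h, against the floor, 214 and 224 in wild type. The GTPase genes had the larger difference in CD14-deficient cells in 9 of 9 cases and class I presentation genes in 13 of 13. The share over all compared genes was not counted for tallies of this kind, here and below. Lists without 2-fold changes in CD14-deficient cells also gave such tallies, 17 of 20 for constitutive proteasome and 10 of 22 for respiratory chain genes. As deposited these were 9 and 1, and with equal medians 19 and 16. No test of the differences between genotypes was possible with 1 array a group. The wild-type labels name smooth LPS and the CD14-deficient labels LPS. A difference in LPS preparation, if there was one, therefore cannot be told apart from genotype, here and below.

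Of 12 inflammatory cytokine genes 11 had the larger log2 difference in CD14-deficient cells, or 9 as deposited. Tnf stood at 149 and 8213, and at 320 and 3802 in wild type, and Cxcl2 at 157 and 8583, against 469 and 1507. Here the 6 h level of the CD14-deficient array was the higher one. Il10 went the other way in level, with 684 at 6 h against 2223, and so did Cxcl9, with 134 against 1217, and Cxcl11, with 843 against 4533. NF-kB genes rose in both, 11 of 13 in CD14-deficient and 10 of 13 in wild-type cells. The medians were 2.65 and 2.03, and 12 of the 13 had the larger difference in CD14-deficient cells, also as deposited and with equal medians, or 11 with the floor at the 60th percentile.

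**Figure D4:**
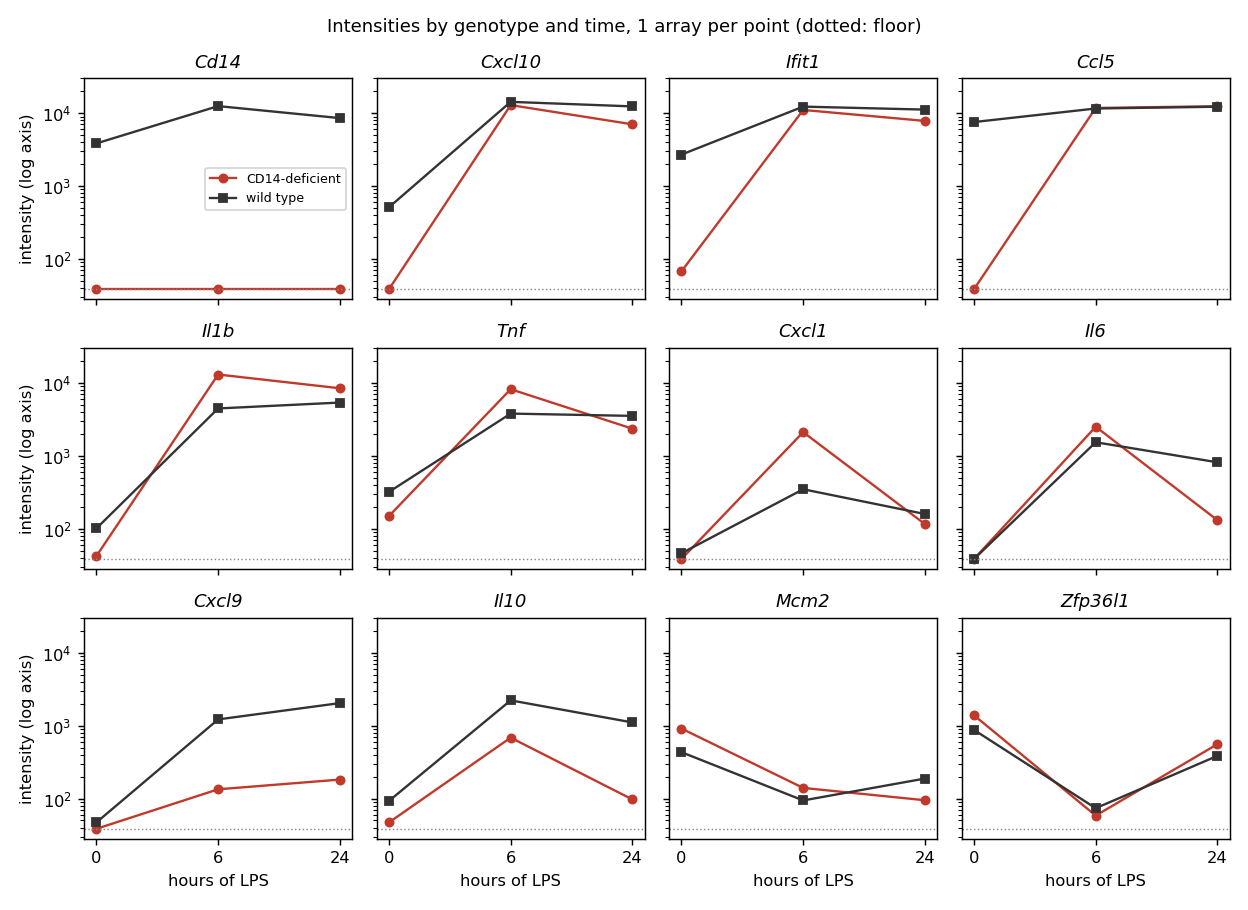
Intensity (log axis) of 12 genes at 0, 6 and 24 h of LPS in CD14-deficient (red circles) and wild-type (black squares) cells, 1 array per point, with the floor of 38.4 dotted. Cxcl10, Ifit1 and Ccl5 start lower in CD14-deficient cells and reach similar levels at 6 h, Il1b, Tnf and Cxcl1 are higher there at 6 h, and Cxcl9 and Il10 are lower at 6 and 24 h.

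Of 26 replication genes compared in wild type 10 fell and 2 rose, with a median of -0.86, against 22 of 27 with a median of -1.43 in CD14-deficient cells. Their unstimulated levels were higher in CD14-deficient cells for the genes named above, with Mcm2 at 912 against 433 and Rrm2 at 1716 against 777, and the 6 h levels were 140 against 94.0 and 267 against 217. All 26 genes compared in both had the more negative difference in CD14-deficient cells, also as deposited and with equal medians. Ccnd1 fell from 4625 to 728 in CD14-deficient cells and stood at 5119 and 3340 in wild type. Glycolysis and hypoxia genes rose in 8 of 19 in wild type, against 2 of 20. The glucose transporter gene Slc2a1 stood at 2649 and 3427 in CD14-deficient cells and at 1083 and 2903 in wild type, and Ak4, a mitochondrial adenylate kinase gene, at 344 and 666 against 58.9 and 520. After quantile normalization 2 genes changed at least 2-fold in opposite directions. Cd74 rose from 508 to 1080 in CD14-deficient cells and fell from 2851 to 1367 in wild type. Vegfa, which encodes a vascular growth factor, fell from 261 to 97.3 in CD14-deficient cells and rose from 151 to 346 in wild type. The class II list, which holds Cd74, had the larger log2 difference in CD14-deficient cells in 6 of 6 genes compared in both. Its medians were 0.91 over 6 genes and -0.76 over 7 in wild type. H2-Aa stood at 437 and 725, against 2042 and 1027 in wild type.

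**Figure D5:**
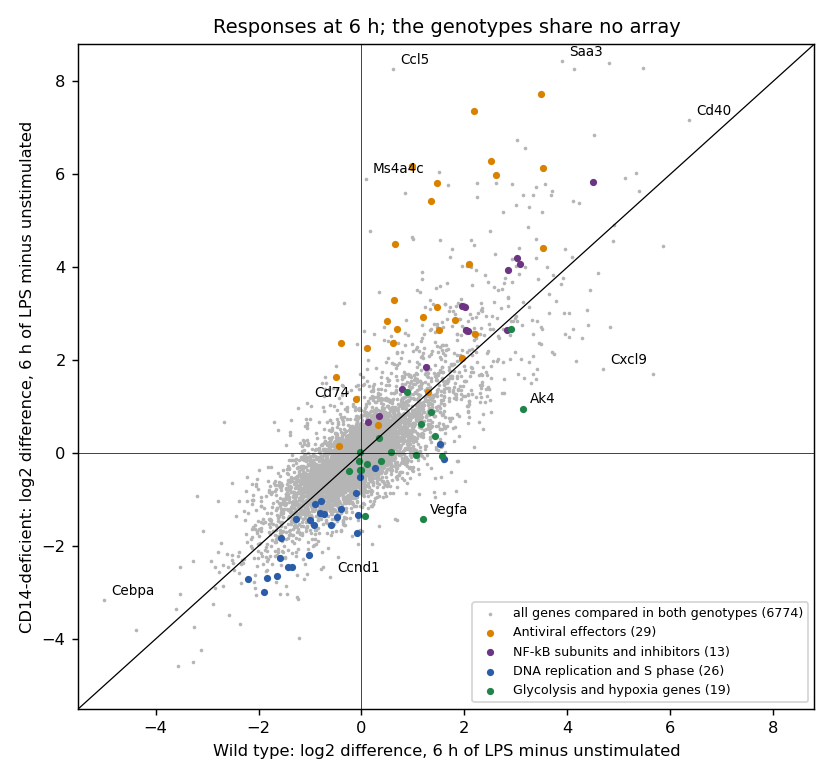
Log2 difference between 6 h of LPS and no stimulus in wild-type (x axis) and CD14-deficient (y axis) cells for 6774 genes compared in both, with 4 lists coloured and the diagonal marking equal differences. Values with 1 array at the floor are bounds. Antiviral genes lie above the diagonal in 29 of 29 cases, NF-kB genes in 12 of 13, and DNA replication genes lie below it in 26 of 26. The share of all 6774 genes on each side of the diagonal was not counted, so these tallies stand without a background.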

How the data were processed

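RNA of 8 groups, 1 array each, was measured on Affymetrix arrays. The authors deposited an intensity on a linear scale for 22690 probe sets per array, made with MAS5 per the submitters' processing notes. Its version, scaling target and detection calls, and the array's genome build, are not given in the sources used here. The deposited table was quantile normalized over the 8 arrays, floored at the 40th percentile of all values and taken to log2. That step also takes out a real shift common to all genes. The platform annotation gave 20393 probe sets 1 gene, 691 several (not used) and 1606 none, and 20364 matched RefSeq by gene identifier. Of all probe sets 64 were array controls. Some of these were assigned to a gene, and Actb and Gapdh were read from such control probe sets. Where a gene had several probe sets (4958 genes), the brightest on average was used. Differences were log2 of 6 h minus unstimulated, with 2-fold as the threshold and no test, since each group is 1 array and the number of arrays limits the precision. The 55 gene lists named 873 genes, of which 753 were on the array and 650 were compared. The samples, genes and lists were chosen with earlier results of these data known.

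Genes named were the 20 largest increases and 15 largest decreases above the floor, the 10 and 5 largest with 1 array at it, the 4 largest differences of each list, the 10 each way with the largest gap between genotypes, genes of opposite direction, and a fixed set (Cd14, Tlr4, Ly96, Tnf, Il6, Il12b, Il10, Ifnb1, Cxcl10, Il1b, Nos2, Ptgs2, Rcan1, Actb and Gapdh). Other list members named were chosen after their values were seen. Promoter windows came from RefSeq, assembly GRCm38.p6. Alternatives changed the scaling, floor, filter, probe set rule or fold threshold. The calculations were tested on simulated data and run in Python 3.11.15 with numpy 2.4.6 and pandas 2.3.3.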

Additional observations from a re-analysis of the deposited data

Results flagged for a closer look

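Cd74 and Vegfa are listed because each changed at least 2-fold in opposite directions in the genotypes at 6 h, each in 1 array against 1, and the difference was not tested. For Cd74, the gene of the class II invariant chain, the CD14-deficient log2 response minus the wild-type one was 2.15, from 1.09 and -1.06. With intensities as deposited the CD14-deficient response was 0.73 and the wild-type one -0.92. For Vegfa the gap was -2.62, from -1.42 and 1.20. With the floor at the 60th percentile of all values the CD14-deficient response of Vegfa was -0.57, and another probe set of the gene gave -0.68.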

How the results depend on the processing

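As deposited, 495 genes passed 2-fold upwards and 1412 downwards, and with the floor at the 60th percentile 528 were higher and 388 lower. At a 3-fold threshold 408 genes were higher and 203 lower. Under the other 5 alternatives at 2-fold, from 661 to 835 genes were higher and from 455 to 641 lower. The count higher in both genotypes ran from 357 to 568. Of 188 named genes past 2-fold, 155 stayed past it in the same direction under each of the 7 alternatives in which they were compared. These alternatives changed the scaling, floor, filter or probe set rule. Cd74, Tbk1, Fh1 and Vegfa were among those that did not stay past it. A gene too dim to compare under an alternative was not counted against it, as with Cxcl9 at the 60th percentile floor. The median of the acute-phase list turned from 1.59 to -0.044 with the floor at the 60th percentile, where fewer of its genes were compared. No paired analysis was possible because each group is 1 array and the labels carry no replicate numbers. Dim genes are limited by the floor, above which no detection calls were used.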
